A study of Mus musculus with 8 samples.

Results

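The genes examined here encode integrins and the cytoplasmic proteins that hold integrins to actin at focal adhesions, in mouse embryonic fibroblasts (MEFs) with and without Lats2. They were chosen by gene name, as 39 genes out of 27745 named on the array: 17 integrin subunits (11 alpha and 6 beta) and 22 cytoplasmic adhesion proteins. The array carries 101 probes for them. Probes entered the comparison when 1 genotype had 2 or 3 of its extracts well above background. By that filter, 38 of the 39 genes had at least 1 kept probe (16 of the 17 integrins and all 22 cytoplasmic proteins). Itga2, the alpha 2 collagen receptor subunit, had none.

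The cells were Lats2-/- and Lats2+/+ MEFs of strain C57BL/6J, untreated and grown in DMEM with serum, from litters 112, 116 and 121. Each litter gave 1 RNA extract per genotype, carried in the labels as a named clone, so that a genotype effect and a difference between 2 cultures of the same litter cannot be told apart within a litter. Both extracts of a litter were hybridised together on two-colour arrays, with the dyes swapped between arrays. Litters 112 and 116 took 2 arrays each and litter 121 took 4, which gave 8 in all. Arrays of a litter repeat the same extracts, and n is therefore 3 litters throughout.

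Integrins are receptors of 1 alpha and 1 beta chain that bind matrix proteins outside the cell. Inside, talin, vinculin, tensin and the ILK complex couple them to actin, and FAK, Src and p130Cas carry the signal onward. LATS2 is a Hippo pathway kinase that phosphorylates the coactivators YAP and TAZ. These act with the DNA-binding TEAD factors, and adhesion and tension on the matrix are known inputs to the same pathway.

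In Lats2-/- relative to Lats2+/+ cells, no member passed an adjusted p of 0.05 (limma, Benjamini-Hochberg), and neither did any of the 22642 kept probes (0% of 14791 genes at 1 probe per gene). The adjusted p of the members lay between 0.711 and 0.986. At an unadjusted p of 0.05, 1549 probes passed by limma and 1347 by the methods' t-test. By limma, 2 of 38 members were higher (Zyx and Tns1), against 4.14% of all genes, and 1 of 38 was lower (Itga7), against 3.47%. These shares are close to the background. The members varied more from litter to litter than most genes did. The median SD of a log2 ratio over the 3 litters was 0.95 for the integrins and 0.54 for the cytoplasmic proteins, against 0.27 for all genes with a kept probe. All genes were not matched to the members for brightness, and the processing compresses ratios of dim probes. Whether the wider spread is particular to the members was not tested.

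The arrays of a litter repeated each other (r of 0.917 to 0.957 across kept probes between dye orientations), so most of the spread lay between litters. In a single channel, 52.9% to 61.3% of gene probes rose well above background. Of the 4 Lats2 probes, the upstream one (A_52_P425064) was lower in every litter, at -1.33, -1.05 and -0.56 on the log2 scale for litters 112, 116 and 121, the order used for every set of 3 values here. The brightest Lats2 probe, nearer the 3' end, gave -0.26, -0.70 and 1.17. The remaining Lats2 probes were like it, at -0.28, -0.70 and 1.12, and at -0.18, -0.49 and 0.80. Which part of the gene is deleted is not given in the sources used here. The YAP targets Ctgf and Cyr61 were higher in every litter, with mean log2 ratios of 1.47 ± 0.26 and 1.35 ± 0.61 (SD, n = 3 litters). All 8 fibroblast markers on the list were detected. In litter 121 all 8 had ratios below 0, with 5 at least 2-fold lower in Lats2-/- cells, among them Pdgfra at -4.96 (above background on 2 of 4 arrays of that extract), Thy1 at -3.66 and Col3a1 at -3.42 on the log2 scale. In litter 116, 7 of the 8 were above 0, with Col3a1 at 3.70 and Thy1 at 2.05. Of 5 epithelial markers, Cdh1 was detected on 4 of 4 arrays of the litter 121 Lats2-/- extract and in no other extract, and Epcam, Krt8, Krt18 and Cldn4 were at background there. The muscle markers were at background in all extracts, as were Pecam1, Cdh5 and Ptprc.

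**Figure D1:**
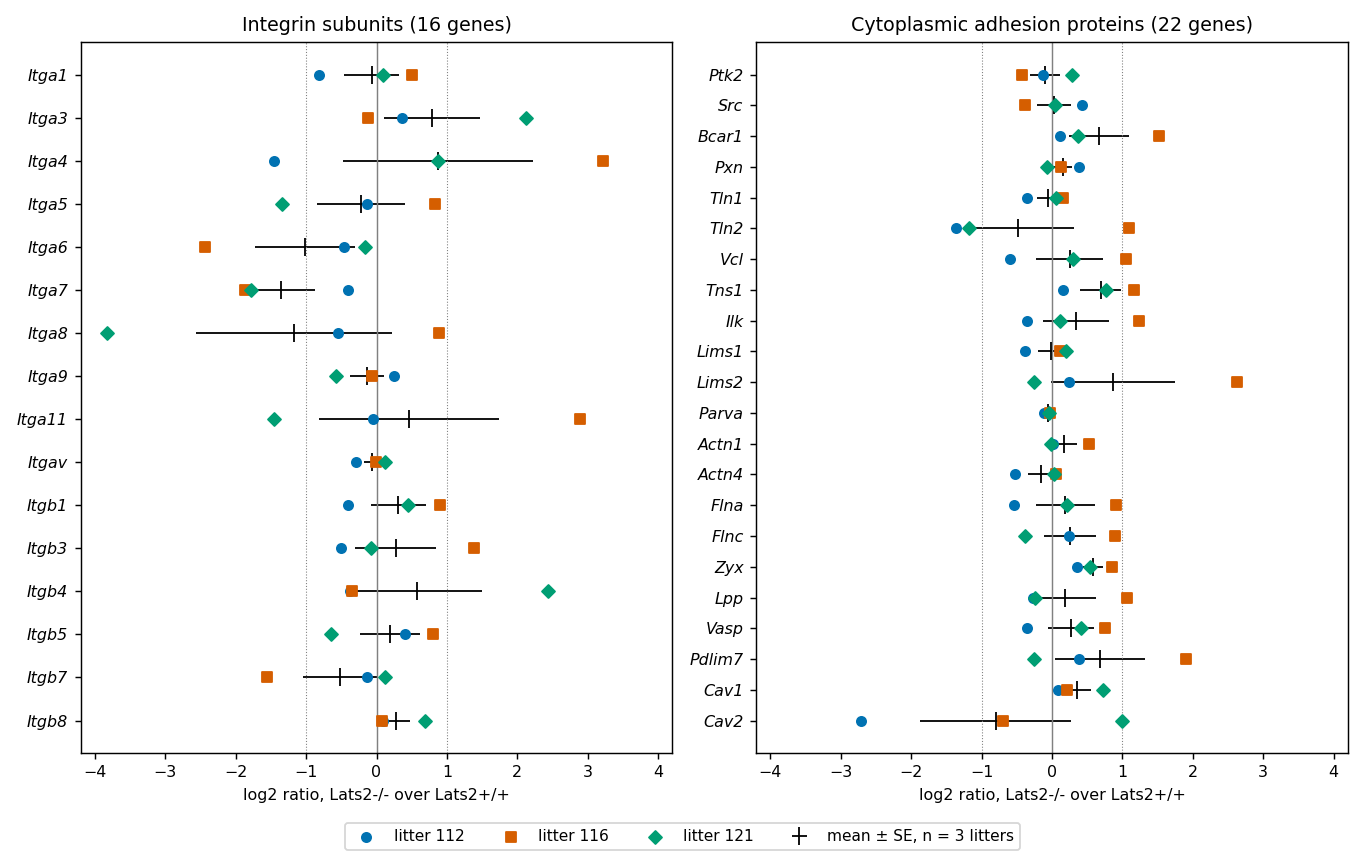
Log2 ratios of Lats2-/- over Lats2+/+ signal for the 16 integrins and 22 cytoplasmic adhesion genes with a kept probe, 1 probe per gene. Coloured points are litters, black bars the mean ± SE over 3 litters, and dotted lines 2-fold. Zyx has its 3 litters between 0.36 and 0.85, whereas the litters of Itga8 run from -3.83 to 0.88.

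Among the alpha chains of laminin receptors, Itga7 was lower in Lats2-/- cells in every litter. Integrin alpha 7 pairs with beta 1 and is best known from muscle. Its log2 signals were 7.43, 7.74 and 7.17 in Lats2-/- cells and 7.85, 9.61 and 8.94 in Lats2+/+ cells. The 3 Lats2-/- extracts were thus below all 3 Lats2+/+ extracts, in which the signals were also more scattered. Of the 38 members 1 was apart in this direction and 0 in the other, where all genes gave 3.01% and 3.24%. The litter ratios were -0.41, -1.87 and -1.78, averaging -1.35 ± 0.81 (SD, n = 3 litters). This is 2.55-fold lower, with limma p-values of 0.0202 unadjusted and 0.711 adjusted. It was lower on 8 of 8 arrays. The probe lies on chromosome 10 at 128360883 to 128360941 (mm8, plus strand), and the other kept probe gave -0.45, -2.07 and -1.98. The unadjusted p became 0.0863 without litter 116 and 0.0800 without litter 121.

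Itga6, the alpha 6 laminin receptor chain, was lower on 8 of 8 arrays as well, and on its brightest probe most of the size came from litter 116. Its signals were 11.51, 10.56 and 11.02 in Lats2-/- and 11.97, 13.0 and 11.19 in Lats2+/+ extracts, which makes the Lats2+/+ extract of litter 116 the highest of the 6. The ratios of -0.46, -2.43 and -0.17 averaged -1.02 ± 1.23 (SD, n = 3 litters; adjusted limma p of 0.747). Without litter 116 the mean was -0.32. The other kept Itga6 probes gave -0.37, -1.97 and -0.15, and -0.35, -0.81 and -0.34. The last of these was dim, at a mean log2 signal of 6.68, and averaged -0.50 ± 0.27 (SD, n = 3 litters), with limma p-values of 0.0291 unadjusted and 0.711 adjusted.

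The alpha 3 and beta 4 laminin receptor chains, typical of epithelial adhesions, stood high in 1 extract. Itga3 gave 0.36, -0.12 and 2.12, and its signal in the Lats2-/- extract of litter 121 was 11.32, against 6.81 to 9.20 in the other 5. Itgb4 gave -0.38, -0.35 and 2.44, with a signal of 9.64 in that extract and of 7.10 to 7.54 in the others. The other kept Itga3 probes gave 2.24 and 0.26 in litter 121, so the Itga3 value there depends on the probe. Neither mean, 0.79 ± 1.18 for Itga3 and 0.57 ± 1.62 for Itgb4 (SD, n = 3 litters), exceeded the spread between litters. Without litter 121 the means were 0.12 and -0.36, so that Itgb4 changed sign. This is the extract in which Cdh1 was detected. Of the 8 fibroblast markers, 3 (Pdgfra, Thy1 and Twist1) had their lowest signal there, and Vim and Pdgfrb differed little from the littermate (-0.07 and -0.14). The part of these in the Itga3 and Itgb4 values was not tested.

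Besides Itga7, the alpha chains at least 2-fold lower in litter 121 were Itga8, Itga11 and Itga5. Itga8, the alpha 8 chain of a receptor for matrix proteins with an RGD motif, had signals of 8.32, 11.63 and 8.94 in Lats2-/- and 8.87, 10.75 and 12.77 in Lats2+/+ extracts. The ratios were -0.55, 0.88 and -3.83, which differ in sign, and the 6 signals ran from 8.32 to 12.77. Itga11, a receptor chain for fibrillar collagen, gave -0.05, 2.89 and -1.46. Its signal of 13.57 in the Lats2-/- extract of litter 116 was above the other 5, which ran from 9.98 to 12.04. Itga5, the fibronectin receptor alpha chain, gave -0.14, 0.83 and -1.34. Its 3 Lats2-/- signals were within 9.71 to 9.84, and its Lats2+/+ signals ran from 9.0 to 11.04. The mean ratios of these alpha chains were -1.17 ± 2.41 for Itga8, 0.46 ± 2.22 for Itga11 and -0.22 ± 1.08 for Itga5 (SD, n = 3 litters), all smaller than their spread.

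**Figure D2:**
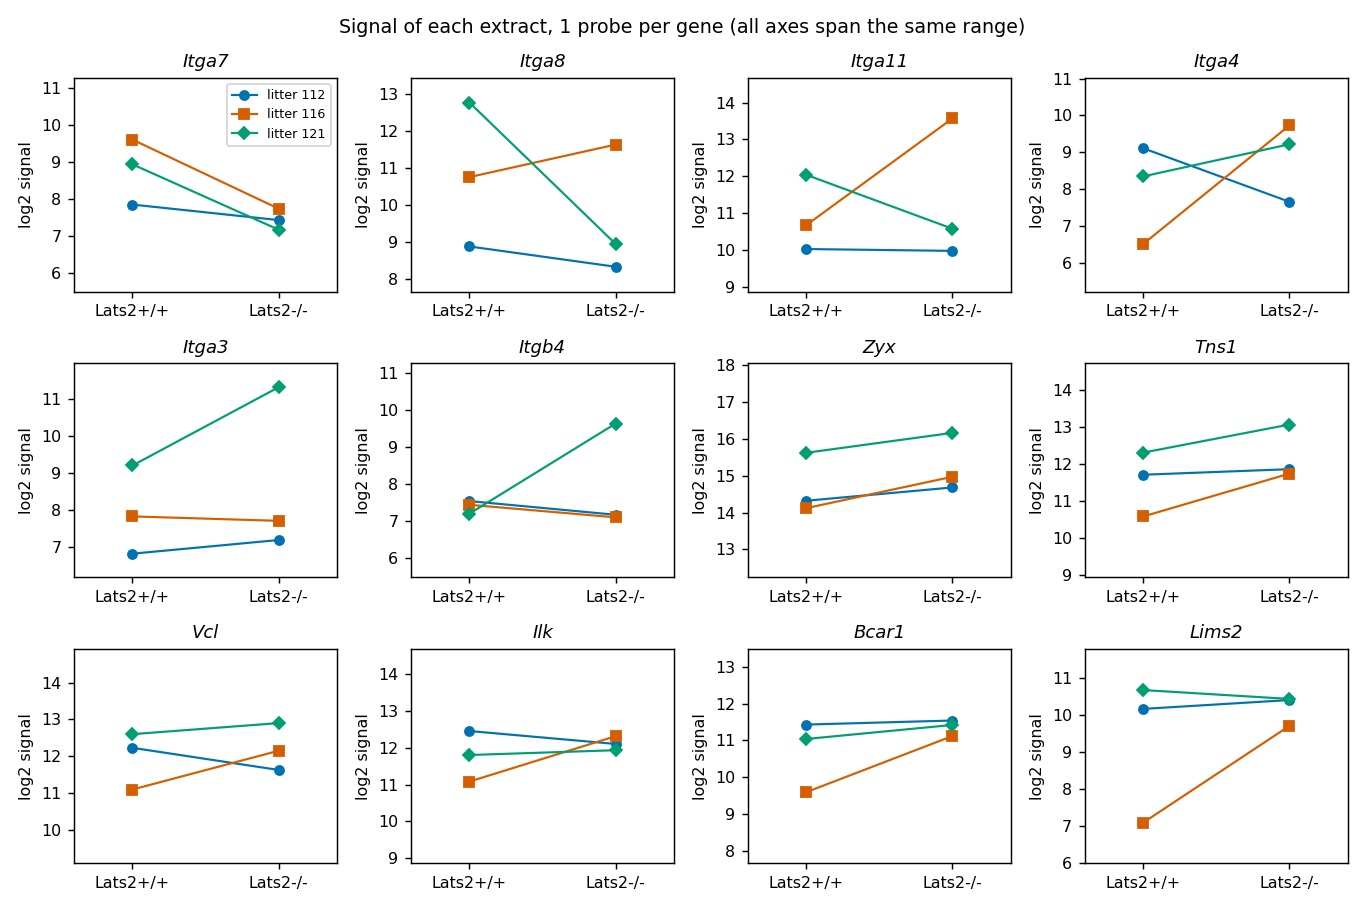
Log2 signal of the 6 extracts for 6 integrins and 6 cytoplasmic adhesion genes, after loess and Aquantile normalization. Lines join the Lats2+/+ and Lats2-/- extract of a litter. Itga7 is lower and Zyx is higher in Lats2-/- cells in every litter, while the Lats2+/+ extract of litter 116 is the lowest point for Zyx, Tns1, Vcl, Ilk, Bcar1 and Lims2.

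Itga4, an alpha chain that binds fibronectin and VCAM1, moved in opposite directions in litters 112 and 116. Its ratios were -1.45, 3.21 and 0.87, from signals of 7.66, 9.73 and 9.22 in Lats2-/- and of 9.11, 6.52 and 8.35 in Lats2+/+ extracts. The mean of 0.87 ± 2.33 (SD, n = 3 litters; adjusted limma p of 0.863) was smaller than the spread between litters. Itga9 ran from -0.57 to 0.25, and its litter 112 value is a bound of at least 1.19-fold higher, since the Lats2+/+ extract there was at background. Itga1 ran from -0.81 to 0.51 and was at least 1.75-fold lower in litter 112, where the Lats2-/- extract was at background. Itgav, the alpha chain of the vitronectin receptors, differed little within any litter, at -0.29, -0.01 and 0.12.

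Among the beta chains, Itgb1, the partner of most of the alpha chains above, had signals of 11.10, 11.46 and 12.66 in Lats2-/- and 11.51, 10.56 and 12.21 in Lats2+/+ extracts. The ratios were -0.41, 0.90 and 0.44 (mean 0.31 ± 0.67, SD, n = 3 litters), and the genotypes overlapped. The mean was 0.67 without litter 112, with an unadjusted limma p of 0.0463, and 0.02 without litter 116. Itgb3, which pairs with alpha v, gave -0.51, 1.38 and -0.08 on its brighter probe and -0.03, 0.10 and 0.05 on the other, so that the litter 116 value rests on 1 probe. Itgb5, another alpha v partner, ran from -0.64 to 0.80. Itgb7 was detected in Lats2+/+ cells of litter 116 but on no array of their Lats2-/- partner, at least 2.81-fold lower there. Itgb8 was dim, with ratios of 0.09, 0.08 and 0.69, and was at least 1.55-fold higher in litter 121, where it was detected in Lats2-/- cells only. In litter 112 both of its extracts were at background, so the value of 0.09 there has no measured direction. No other integrin of the 16 was above 0 in all 3 litters, against 15.9% of all genes, and 2 (Itga6 and Itga7) were below 0 in all 3, against 14.1%.

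The number of integrins above 0 was 4 of 16 in litter 112, then 9 and 8 in litters 116 and 121, where all genes gave 52.3%, 50.6% and 50.9%. The median log2 ratios were -0.33, 0.29 and 0.00, against 0.02, 0.01 and 0.01 over all genes. The median of their mean ratios, 0.06, became -0.23 without litter 116. Changes of at least 2-fold were counted in each direction against all genes. In litter 112, 0 integrins were 2-fold higher (3.15% of all genes) and 1 was lower (1.46%). In litter 116, 3 were higher (5.54%) and 3 lower (3.68%), and in litter 121, 2 were higher (4.04%) and 4 lower (3.24%). These shares were above the background in both directions, a background not matched for brightness. Itga7 was the only integrin at least 2-fold changed in the same direction in more than 1 litter. Across the 16 integrins the litter ratios correlated at -0.283 (112 with 116), 0.0311 (112 with 121) and -0.0770 (116 with 121), points that share the extracts of their litter.

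Of the kinases and scaffolds of adhesion signalling, Bcar1 alone reached 2-fold in any litter. Ptk2, which encodes focal adhesion kinase (FAK), had ratios of -0.13, -0.43 and 0.28, and Src ran from -0.39 to 0.43. Pxn, the scaffold paxillin, gave 0.38, 0.13 and -0.07. Bcar1, the FAK and Src substrate p130Cas, was higher on 8 of 8 arrays, at 0.11, 1.52 and 0.37. Its signals were 11.54, 11.12 and 11.42 in Lats2-/- and 11.43, 9.60 and 11.04 in Lats2+/+ extracts, so that the Lats2+/+ extract of litter 116 stood below the other 5. The mean was 0.67 ± 0.75 (SD, n = 3 litters; adjusted limma p of 0.737), and 0.24 without litter 116.

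Of the proteins that link integrin tails to actin, Tns1, which encodes tensin 1, passed an unadjusted p of 0.05. Its log2 signals were 11.86, 11.74 and 13.07 in Lats2-/- and 11.71, 10.58 and 12.31 in Lats2+/+ extracts, which overlapped between genotypes. Ratios were 0.15, 1.17 and 0.76 and averaged 0.69 ± 0.51 (SD, n = 3 litters), with limma p-values of 0.0432 unadjusted and 0.711 adjusted. This probe lies on chromosome 1 at 73843481 to 73843540 (mm8, minus strand). All 4 kept Tns1 probes were above 0 in litter 116, but 2 of them had means below 0. The next brightest gave -0.15, 1.26 and -0.19, with a mean of 0.31, and the dimmer ones had means of -0.22 and -0.09. With the mean over its 4 probes the ratio was 0.17, with an unadjusted limma p of 0.505. Tln1, the main talin, gave -0.36, 0.16 and 0.05, and Tln2, its paralogue, gave -1.36, 1.1 and -1.18. The Tln2 mean of -0.48 became -1.27 without litter 116, with an unadjusted limma p of 0.00317. Vcl, which encodes vinculin, gave -0.60, 1.05 and 0.30, with Lats2-/- signals of 11.63, 12.15 and 12.90 and Lats2+/+ signals of 12.23, 11.10 and 12.60.

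In the ILK, PINCH and parvin complex, which binds beta integrin tails, Ilk gave -0.35, 1.23 and 0.12. Its Lats2-/- signals were 12.10, 12.31 and 11.93, and its Lats2+/+ signals 12.45, 11.08 and 11.80. Lims2, which encodes PINCH2, gave 0.24, 2.62 and -0.25, the highest single ratio among the cytoplasmic members, with a Lats2+/+ signal in litter 116 of 7.09 against 9.71 to 10.68 in the other 5 extracts. Lims1 (PINCH1) ran from -0.38 to 0.20. Parva, the actin-binding alpha parvin, had the smallest SD of the 38 members, at -0.12, -0.03 and -0.04 on its brighter probe. The other Parva probe gave 1.05 in litter 116.

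Of all members, Zyx had the smallest unadjusted p. Zyx, which encodes a LIM protein that gathers at strained adhesions and stress fibres, had log2 signals of 14.68, 14.97 and 16.16 in Lats2-/- and 14.32, 14.12 and 15.62 in Lats2+/+ extracts. Within each litter the Lats2-/- signal was the higher, on 8 of 8 arrays, although the genotypes overlapped between litters because litter 121 was brighter in both. The ratios of 0.36, 0.85 and 0.54 averaged 0.58 ± 0.25 (SD, n = 3 litters), which is 1.5-fold higher. The unadjusted limma p was 0.0151 and the adjusted p 0.711. The 1 Zyx probe lies on chromosome 6 at 42287938 to 42287997 (mm8, plus strand). The unadjusted p was 0.0567 without litter 121, and 0.323 when extracts were compared without the litter pairing.

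Its relative Lpp, with 6 kept probes, gave -0.27, 1.07 and -0.24, and Pdlim7, a PDZ-LIM protein of stress fibres, gave 0.39, 1.90 and -0.25. Vasp, which promotes actin filament elongation at adhesions, ran from -0.36 to 0.75. Among the actin crosslinkers, Actn1 and Actn4 (alpha actinins) ran from -0.52 to 0.53, and Flna and Flnc (filamins) from -0.54 to 0.91.

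Of the caveolins, membrane proteins of caveolae, Cav1 was higher on 8 of 8 arrays by its brighter probe, at 0.09, 0.21 and 0.73 (mean 0.35 ± 0.34, SD, n = 3 litters; adjusted limma p of 0.739), and 0.15 without litter 121. The other Cav1 probe gave -0.17, -0.04 and 0.39 and was higher on 4 of 8 arrays. Cav2, which sits beside Cav1 on chromosome 6, gave -2.71, -0.70 and 1.0. Its signals were 8.04, 9.99 and 11.38 in Lats2-/- and 10.75, 10.69 and 10.38 in Lats2+/+ extracts, so that the Lats2+/+ extracts lay close together and the Lats2-/- extracts did not.

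Most cytoplasmic genes were above 0 in litter 116. The counts for the 3 litters were 10, 18 and 14 of 22, against 52.3%, 50.6% and 50.9% of all genes, and the median ratios were -0.13, 0.80 and 0.09. The median of their mean ratios, 0.19, became -0.04 without litter 116. In litter 116, 8 of 22 were at least 2-fold higher and 0 were 2-fold lower, where all genes gave 5.54% and 3.68%. The 8 were Bcar1, Tln2, Vcl, Tns1, Ilk, Lims2, Lpp and Pdlim7. In litters 112 and 121, 0 were 2-fold higher, against 3.15% and 4.04% of all genes (Cav2 in litter 121 was just under that before rounding). In litter 112, 2 were 2-fold lower (Tln2 and Cav2, 9.09% against 1.46%), and in litter 121 there was 1 (Tln2, 4.55% against 3.24%). By role, the litter 116 medians were 1.07 for the 4 talin, vinculin and tensin genes, 0.96 for the 4 zyxin family, VASP and PDZ-LIM genes, 0.71 for the 4 actin crosslinkers and 0.68 for the 4 ILK complex genes. They were -0.13 for the 4 kinases and scaffolds and -0.24 for the 2 caveolins. Bcar1, Tns1, Zyx and Cav1 were above 0 in all 3 litters (4 of 22) and Parva was below 0 in all 3 (1 of 22), shares of 18.2% and 4.55% against 15.9% and 14.1% of all genes.

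The 6 signals place each extract beside the others. The Lats2+/+ extract of litter 116 was the lowest of the 6 for 16 of the 22 cytoplasmic genes (72.7%), whereas it was the lowest for 19.7% of all genes and for 3 of the 16 integrins. The Lats2-/- extract of the same litter was the highest for 0 of the 22, against 16.6% of all genes. The Lats2+/+ extract of litter 116 was also the highest for 0, while the litter 121 extracts were the highest for 9 (Lats2-/-) and 7 (Lats2+/+). Of the 18 genes above 0 in litter 116, the Lats2+/+ extract was the lowest for 16 (88.9%), where all genes above 0 in that litter gave 38.8%. This count was chosen after the values had been seen, and a ratio above 0 itself favours a low Lats2+/+ extract. The count over the 22 was 16 with signals centred on the array medians, and 17 over the mean of each gene's kept probes. Of the 8 fibroblast markers, the 3 collagens (Col1a1, Col1a2 and Col3a1) were also lowest in that Lats2+/+ extract, with litter 116 ratios of 2.75, 1.84 and 3.70, whereas Vim was highest in it (-1.19). Thy1 and Pdgfrb had litter 116 ratios of 2.05 and 0.87, and Pdgfra and Twist1 of 0.13 and 0.05. Of the 5 epithelial markers, Krt8 and Krt18 were above background in that extract (2 of 2 arrays each), and Cdh1, Epcam and Cldn4 were on 0 of its arrays. The part of either cell type in the ratios was not tested.

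**Figure D3:**
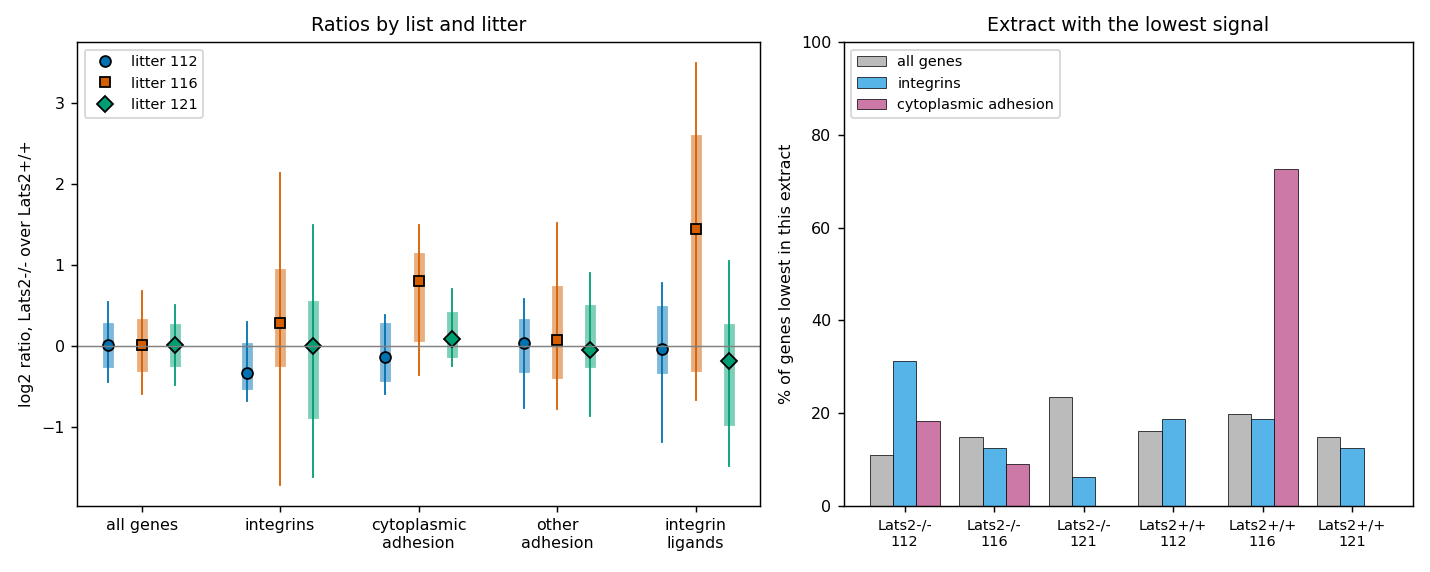
Left, log2 ratios by gene list and litter, with the median (point), the middle 50% of genes (thick bar) and the 10th to 90th percentile (thin line). Right, the percentage of genes whose lowest of 6 signals falls in each extract. The cytoplasmic genes and the integrin ligands are shifted upward in litter 116, and 72.7% of the cytoplasmic genes are lowest in the Lats2+/+ extract of that litter.

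As most cytoplasmic genes shared a direction in litter 116, the members' promoters were read for the TEAD motif GGAATG (both strands, so also CATTCC) and for the CArG box bound by serum response factor. RefSeq windows (GRCm38.p6), which run from 250 bases before to 50 bases after the transcription start, matched 30 of the 39 members. Itga6, Itga7, Itgb3, Itgb4, Ptk2, Pxn, Tln2, Parva and Lims2 had no match. The TEAD letters were present for 6 of the 30 genes (20.0%) and for 16.6% of all 27025 genes, a share near the background. A CArG box was present for 1 of the 30, Vcl, and for 1.81% of all genes. The 250 bases before the start are given below for Vcl, which holds both motifs (in capitals), and for Zyx, the member with the smallest unadjusted p, which holds neither.
Vcl, chr14:20929148-20929397 (plus strand): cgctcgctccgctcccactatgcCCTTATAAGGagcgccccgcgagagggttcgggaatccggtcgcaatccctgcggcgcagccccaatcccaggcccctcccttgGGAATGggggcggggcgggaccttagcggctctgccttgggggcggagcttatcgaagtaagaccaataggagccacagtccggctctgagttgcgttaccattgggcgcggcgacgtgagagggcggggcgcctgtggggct
Zyx, chr6:42349578-42349827 (plus strand): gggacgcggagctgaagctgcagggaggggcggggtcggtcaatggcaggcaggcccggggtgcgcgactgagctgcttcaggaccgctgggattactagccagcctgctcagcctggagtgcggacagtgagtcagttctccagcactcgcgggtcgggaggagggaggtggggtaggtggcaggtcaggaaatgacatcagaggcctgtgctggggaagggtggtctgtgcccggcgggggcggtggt

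The other 5 genes with the TEAD letters were Flna, Lpp, Itgb1, Actn4 and Flnc, each shown as 30 bases around the match in capitals.
Flna, chrX:74246663-74246692 (minus strand): ggcgttgtggggCATTCCaacgggaggggc
Lpp, chr16:24721661-24721690 (plus strand): ctggaagtatgtGGAATGgagaaggaagtg
Itgb1, chr8:128685635-128685664 (plus strand): acgcggcgcggaGGAATGcgtttccggagg
Actn4, chr7:28962531-28962560 (minus strand): tgaatgggaacaCATTCCaccccgaaacag
Flnc, chr6:29433140-29433169 (plus strand): cgggccgggcggCATTCCtgggaggccggc
Their mean log2 ratios were 0.19, 0.18, 0.31, -0.15 and 0.25, and none differed from 0 beyond the spread between litters. Such matches describe letters in a window and not bound sites.

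Of 50 other adhesion genes, 46 had a kept probe, and 1 was higher and 2 were lower at an unadjusted p of 0.05. These are 2.17% and 4.35%, against 4.14% and 3.47% of all genes, shares near the background. Rsu1, a partner of PINCH1, was higher at 0.21, 0.48 and 0.46 (mean 0.38 ± 0.15, SD, n = 3 litters), on 8 of 8 arrays. Ptk2b, the FAK relative PYK2, was lower at -1.50, -0.90 and -0.89. Its signals of 7.95, 8.40 and 8.69 in Lats2-/- lay below all of those in Lats2+/+ extracts, 9.45, 9.30 and 9.57, as did those of 3.01% of all genes. The mean was -1.10 ± 0.35 (SD, n = 3 litters; unadjusted limma p of 0.00376). Cavin3 (Prkcdbp in the files), a coat protein of caveolae, was lower at -1.04, -0.93 and -1.90, averaging -1.29 ± 0.53 (SD, n = 3 litters; unadjusted limma p of 0.00671). The median ratios of this list were 0.04, 0.07 and -0.05 in the 3 litters, with 7 of 46 at least 2-fold higher (15.2%, against 5.54% of all genes) and 3 lower (6.52%, against 3.68%) in litter 116, and an upper quartile there of 0.68 (0.27 over all genes). In litter 112, 3 were 2-fold higher (6.52%, against 3.15%) and 4 lower (8.70%, against 1.46%), and in litter 121, 3 were higher (6.52%, against 4.04%) and 3 lower (6.52%, against 3.24%).

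Of 26 integrin ligands, 23 had a kept probe, and 2 were higher (8.70%, against 4.14% of all genes) and 0 lower (against 3.47%) at an unadjusted p of 0.05. Lama2, the laminin alpha 2 chain, which is a ligand of alpha 7 beta 1, was higher on 8 of 8 arrays, at 2.49 and 1.63 in litters 116 and 121. In litter 112 its Lats2+/+ extract was at background, and the value there is a bound of at least 6.80-fold higher. The unadjusted limma p of 0.00141 rests in part on that litter's ratio as measured (2.87), which is not an exact value. Postn, which encodes periostin, a ligand of alpha v integrins, was higher at 0.80, 2.55 and 0.67 (mean 1.34 ± 1.05, SD, n = 3 litters; unadjusted limma p of 0.0425). In litter 116, 12 of the 23 ligands were at least 2-fold higher and 1 was lower, against 5.54% and 3.68% of all genes, with a median ratio of 1.44. In litter 121, 3 were higher (13.0%, against 4.04%) and 6 lower (26.1%, against 3.24%), with a median of -0.18. In litter 112, 2 were higher (8.70%, against 3.15%) and 3 lower (13.0%, against 1.46%), with a median of -0.03. The Lats2+/+ extract of litter 116 was the lowest of the 6 for 10 of the 23, against 19.7% of all genes. The Lats2-/- extract of that litter was the highest for 7 of the 23 (30.4%, against 16.6%).

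Probes of the same gene were compared where a member had more than 1 kept probe, which held for 27 members. The probes lay within 0.5 of each other on the log2 scale in every litter for 13 of them, and over 1 apart in some litter for 10. Some of the wide gaps were between a bright and a dim probe of the same direction. For Itga8 the brightest probe gave -3.83 in litter 121 and the dimmest -1.97, and for Itga4 the 2 probes gave 3.21 and 0.73 in litter 116. The offset added before the log compresses ratios of dim probes. In contrast, Itga3 had 2 probes at 2.12 and 2.24 in litter 121 and another at 0.26. In the Lats2-/- extract of litter 112 the signals of these probes were alike, at 7.18, 6.66 and 6.88. The probes of Itga3, Itgb3, Tns1 and Parva disagreed at like brightness or in sign, and their values hold for the probe named.

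**Figure D4:**
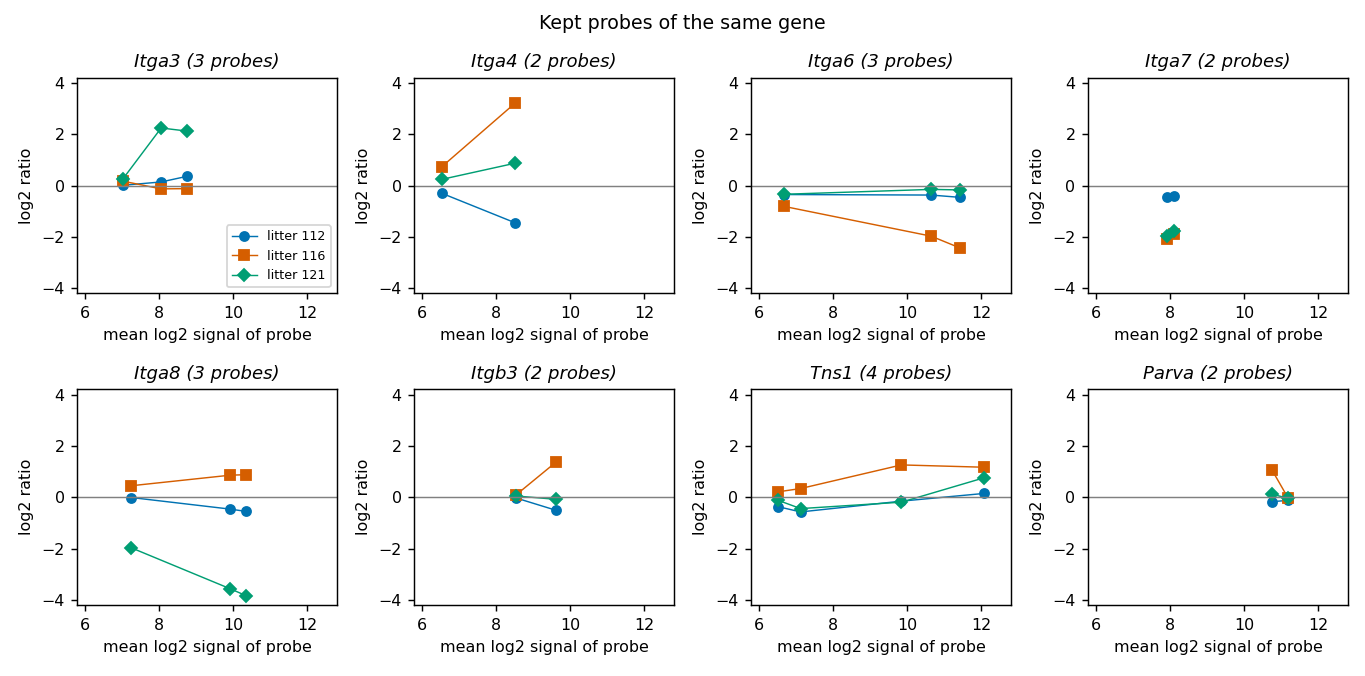
Log2 ratios of all kept probes for 8 members, by litter, against the mean log2 signal of the probe. The 2 probes of Itga7 lie together near -2 in litters 116 and 121, whereas the ratios of Itga4 and Itga8, and that of Itga6 in litter 116, are nearer to 0 on the dimmest probe and those of Itga3, Tns1, Itgb3 and Parva differ between probes.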

How the data were processed

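RNA of 6 MEF extracts was hybridised to 8 two-colour Agilent arrays (design 14868). Spot intensity values, with no normalization, and log10 ratios of red over green, background-subtracted and dye-normalized within the array, were made by the authors in Feature Extraction from Agilent (10.7.3.1 in the file headers, 10.5.1.1 in the submitters' processing notes). The deposited value table holds the same log10 ratios turned to Lats2-/- over Lats2+/+ (largest difference 0.005, column medians 0).

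Here the intensities were corrected by normexp (offset 50) and loess in limma 3.58.1 (R 4.3.3), without 860 outlier spots. Ratios of each litter were averaged over both dye orientations, and the 3 litter ratios were tested against 0 with limma (lmFit and eBayes, two-sided, Benjamini-Hochberg over 22642 kept probes). A gene was read from its kept probe with the highest mean signal. Signals per extract were taken after Aquantile. Where a probe was detected in 1 extract and never in its litter partner, a bound is given, the bright signal over the higher of the dim probe's own signal and the lowest signal well above background on that array. Extracts of the same litter deviated together from their genotype means (r of 0.46, 0.298 and 0.466). Arrays shared by both extracts can also produce this. The labels name the litter and each array holds both of its extracts, so genotypes were paired within litters. Litters 112 and 116 share slide 1 and litter 121 is alone on slide 2, so slide 2 and that litter cannot be told apart. Precision is limited by the 3 litters.

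The members and lists were chosen with earlier results of these data known. Full values are given for members with an unadjusted p under 0.05, a log2 ratio of at least 1 in size on average or in a litter with both extracts detected, or a core role (Itgb1, Itgav, Itga5, Ptk2, Pxn, Vcl, Tln1, Zyx, Ilk and Cav1). Genes of the 2 further lists are named with an unadjusted p under 0.05. Older gene names were matched through RefSeq for 8 of 50 other adhesion genes and 1 of 26 ligands. Alternatives changed the offset, the signals, the centring, the filter on dim probes, the probe of a gene, the litters, the pairing or block, and the test.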

Additional observations from a re-analysis of the deposited data

How the results depend on the processing

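With 3 litters, no probe passed the adjusted threshold in the main setting by limma, in 10 of 12 alternatives by limma or by the methods' t-test. Treating all 8 arrays as observations gave 341 probes with litter as a random block (within-litter correlation 0.869) and 717 with slide as one, and 7 members past an unadjusted p of 0.05 in both of those settings, against 3 with litter means. Those fits count repeat arrays of the same extracts, and calls rose over the whole array too. The share of all genes past the unadjusted p is not given for each alternative. The counts of members over the alternatives are therefore not a result about the members. The count of members was 1 without the replicate block, that is without pairing by litter, 0 by the methods' t-test, and 1 to 4 when a litter was left out (1 without litter 121). The median ratio of the integrins ran from -0.23 to 0.19 over its alternatives and that of the cytoplasmic genes from -0.04 to 0.34. Both were lowest without litter 116, where they fell below 0, against 0.06 and 0.19 in the main setting. Of 350 values of 25 named members over the alternatives, none changed the sign of a member past the unadjusted threshold, and 14 ended its call: 3 for Itga7, 3 for Zyx and 8 for Tns1. Leaving out a litter could not change the sign of these members, as the 3 litter ratios of each share it. Members whose groups overlap could change sign with 1 litter: without litter 116 the mean was -0.29 for Itga4, -0.76 for Itga11, -0.29 for Itgb3, -0.15 for Vcl, -0.11 for Ilk, -0.26 for Lpp and 0.07 for Ptk2. Without litter 121 it was 0.17 for Itga8, 0.34 for Itga5 and -0.36 for Itgb4, and without litter 112 it was 0.15 for Cav2, 0.11 for Tln1 and 0.06 for Itgav. Itgb1 passed an unadjusted p of 0.05 without litter 112, as did Tln2 without litter 116. Dim probes limit Itga1, Itga9, Itgb7 and Itgb8, which were at background in some extracts.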
